A study of Mus musculus with 16 samples.

Results

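The DEAD-box and DEAH-box helicases are enzymes that use ATP to open short RNA duplexes or to strip proteins from RNA. They were followed at the transcript level in mouse embryonic stem cells in which 1 of them, DDX10, carried a degradation tag. Members were all genes of the deposited table whose symbol begins with Ddx or Dhx followed by a number, which gave 52 of 14552 genes. The cells were E14 mouse embryonic stem cells, and all of them, the untreated controls included, had the genotype Ddx10-AID, Tir1. AID is a plant-derived tag, and Tir1 is a plant ubiquitin-ligase subunit that, on binding auxin, marks a tagged protein for the proteasome. All cells grew on gelatin in serum medium with LIF, the GSK3 inhibitor CHIR99021 at 3 µM and the MEK inhibitor PD0325901 at 1 µM. The 8 groups of 2 libraries were untreated cells, 6 durations of auxin (indole-3-acetic acid, 500 µM), which were 2, 4, 6 or 12 h and 1 or 2 days, and a washout group kept 2 days with auxin and then 2 further days without it, called withdrawal here. No untagged cells given auxin were analysed here, so effects of auxin itself and of DDX10 loss cannot be told apart, and the labels do not say whether the line is 1 clone or whether the replicates were separate cultures.

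A member of this enzyme family usually works at a fixed station of RNA metabolism. In the nucleolus, DDX10, whose yeast counterpart is Dbp4, acts on the precursor of the small ribosomal subunit, where helicases release small nucleolar RNAs and allow the 18S rRNA precursor to fold and be cut. In the spliceosome, DEAH-box members such as DHX16, DHX38, DHX15 and DHX8 drive successive remodelling steps, from activation to release of the spliced mRNA and the excised intron. Elsewhere in the cell the same fold serves translation initiation (DDX3X), mRNA export (DDX19A, DDX19B), decapping and storage of mRNA (DDX6) and the sensing of viral RNA (RIG-I, encoded by Ddx58).

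The 52 members were divided by these roles into 16 nucleolar helicases, 13 splicing helicases and 23 others. The nucleolar class held 5 members of the small-subunit pathway (Ddx10, Ddx47, Ddx49, Ddx52, Dhx37), 7 of the large-subunit pathway and 4 that serve both or the nucleolus in general. Dhx15, placed with splicing, also works in ribosome assembly. Ddx26b, a name still carried by the table, encodes a protein related to an Integrator subunit rather than a working helicase, and Ddx11 encodes a DNA helicase. Ddx3y and Ddx60 were not analysed here. No member carried the symbol Ddx39a, and the paralog of Ddx39b is named Ddx39 here.

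The promoters of 3 members are shown because Ddx10 is the degron target and Dhx16 and Ddx58 had the largest rise and the largest fall among the 52 transcripts at 2 days. Each is the 250 bases before the RefSeq transcription start on GRCm38.p6, given 5′ to 3′ on the strand of the gene, with GGGCGG on either strand, the core of the GC box to which Sp1-family factors bind, in capitals. The Ddx10 window is chr9:53248113-53248362 on the minus strand, that of Dhx16 is chr17:35879528-35879777 on the plus strand, and that of Ddx58 is chr4:40239826-40240075 on the minus strand.
Ddx10: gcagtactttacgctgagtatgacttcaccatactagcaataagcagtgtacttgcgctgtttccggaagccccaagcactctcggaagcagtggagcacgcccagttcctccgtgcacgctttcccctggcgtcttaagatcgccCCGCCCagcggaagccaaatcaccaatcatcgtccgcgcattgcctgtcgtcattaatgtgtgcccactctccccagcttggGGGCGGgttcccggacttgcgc
Dhx16: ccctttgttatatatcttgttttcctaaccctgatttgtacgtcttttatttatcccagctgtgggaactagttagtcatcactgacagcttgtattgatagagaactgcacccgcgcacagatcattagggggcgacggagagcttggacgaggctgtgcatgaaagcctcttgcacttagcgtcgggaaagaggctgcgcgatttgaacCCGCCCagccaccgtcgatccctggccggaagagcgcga
Ddx58: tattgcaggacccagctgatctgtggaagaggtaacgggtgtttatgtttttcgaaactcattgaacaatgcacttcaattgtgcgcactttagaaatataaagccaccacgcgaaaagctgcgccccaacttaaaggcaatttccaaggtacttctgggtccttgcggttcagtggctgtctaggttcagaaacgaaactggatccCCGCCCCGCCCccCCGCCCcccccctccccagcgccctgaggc
In Ddx58, 2 of the 3 matches share a base. Of the 52 members, 45 had a promoter entry. GGGCGG or its complement stood in a window of 31 of these 45 members (68.9%), against 35.4% of all 27025 genes with an entry. Its share was 68.8% in nucleolar, 70.0% in splicing and 68.4% in other helicases. Some genes had more than 1 window, and a match in any of them counted. The 27025 genes were not restricted to expressed genes, whereas all 52 members passed the filter on low values. The motif shares given here are thus not matched for expression. The E-box CACGTG, bound by MYC and related factors, stood in 6 of 45 members (13.3%) against 6.86% of all genes. By class it stood in 1 of 16 nucleolar, 3 of 10 splicing and 2 of 19 other helicases. CCGGAAGT, a site of ETS-family factors, stood in 6 of 45 (13.3% against 3.23%), and the NRF1 palindrome in 2 of 45 (4.44% against 0.877%). None of these last 3 motifs had an exact match in the 3 windows shown. CCGGAAG, the ETS site without its last base, stands in the Ddx10 and Dhx16 windows. The search for GGGCGG was added after the windows had been seen, as was one for the core of the interferon-stimulated response element, which matched 1 of 45 members (Ddx49) against 3.46% of all genes.

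All libraries carried the markers of embryonic stem cells, and all 8 genes on that list were detected in every library, with Pou5f1 between 13539 and 25252 normalized counts. Their levels were not constant. Pou5f1 was called lower than untreated at each of the 6 auxin times, by a log2 change of -0.75 at 12 h (adjusted p = 6.55e-06) and -0.32 at 2 days (adjusted p = 0.00334). Dppa5a changed by -0.91 at 2 h (adjusted p = 0.000328), and Klf4 rose by 1.09 at 2 days (adjusted p = 0.000301). Summed over the list, the 8 genes lay between 102233 and 107107 untreated, between 80842 and 92267 from 2 to 12 h, between 102166 and 106622 at 1 and 2 days and between 115428 and 117855 after withdrawal.

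Summed 2-cell-like markers (Zscan4c, Zscan4d, Zscan4f, Tcstv3) ranged from 318 to 713 in untreated cells, from 1537 to 2056 at 1 day, from 3282 to 3680.0 at 2 days and from 1412 to 1466 after withdrawal, against 245 to 359 from 2 to 12 h. Zscan4c, Zscan4d and Zscan4f were above 0 in every library and Tcstv3 was at 0 in some. Summed markers of primitive endoderm (Gata6, Gata4, Sox17, Dab2) were low but ranged from 51.8 to 57.8 in untreated libraries, from 119.8 to 127 at 2 days and from 72.2 to 75.4 after withdrawal, and Sox17 was at 0 in some libraries. Of the 3 that were tested, Gata6 (2.37, adjusted p = 0.015) and Dab2 (1.01, adjusted p = 0.0475) rose at 2 days. Of the 3 neural markers, Neurod1 rose from 22.2 ± 1.61 to 179 ± 15.5 at 2 days (mean ± SD, n = 2, log2 change 2.95, adjusted p = 4.55e-07), Tubb3 changed by -0.77 (adjusted p = 0.00179), and their sum went from between 1616 and 2369 to between 1282 and 1343. Summed mesoderm markers (T, Mixl1, Eomes) ranged from 320 to 522 untreated and from 159 to 185 at 12 h. They ranged from 237 to 280 at 2 days and from 460 to 491 after withdrawal. Of 3 trophoblast markers 1 was measured, at 35.6 to 67.1 untreated and 17.8 to 28.8 at 2 days. Of 4 fibroblast markers 2 were measured, with a sum of 107 to 108 untreated and 67.4 to 97.6 at 2 days. These markers thus changed over the groups, but not all in the same course. The summed stem cell markers were lowest from 2 to 12 h, and the 2-cell-like sum was still above untreated after withdrawal. The part of these markers in the helicase changes described below was not tested. In bulk samples such as these, fewer cells of a type and less RNA per cell cannot be told apart. Libraries held an estimated 13.6 to 17.5 M reads in genes. Replicates differed most in untreated cells, where the SD of the log2 difference between replicates over genes was 0.62, and at 1 day, where it was 0.53, against 0.37 to 0.41 elsewhere.

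Transcript levels of the class were high. Normalized counts per kilobase of the longest annotated transcript in untreated cells were highest for Ddx5 (6150 per kb), followed by Ddx39b (3305), Ddx3x (3279), Dhx15 (2495), Ddx21 (2437) and Ddx18 (2127). Ddx10 stood at 470 per kb, the 29th of the 52, and Dhx58, a relative of RIG-I, was lowest at 4.98. The median level per kb was 1136 in splicing helicases, 501 in nucleolar helicases and 255 in the others. All 52 members passed the filter on low values, and the median of their mean normalized counts was 1703, against 402 over the 13355 genes tested.

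The transcript of the degron target itself first lay above and later below the untreated level. Ddx10 (ENSMUSG00000053289, chromosome 9, 53098635 to 53248053, minus strand, mm10) was measured at 1433 and 1509 normalized counts in untreated cells. It was at 1847 and 2046 after 2 h of auxin, 1886 and 1855 after 4 h, 1676 and 1675 after 6 h and 1312 and 1305 after 12 h. It stood at 1159.7 and 889 after 1 day, at 997 and 1041 after 2 days and at 1695 and 1498 on withdrawal. The libraries of 2, 4 and 6 h all lay above both untreated libraries, those of 12 h, 1 day and 2 days all below, and 1 withdrawal library lay above and 1 between the untreated values. These are levels of mRNA and say nothing of the amount of DDX10 protein, since the tag acts on the protein.

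Ordered by mean, Ddx10 was highest at 2 h, followed by 4 h, 6 h, withdrawal, untreated, 12 h, 1 day and 2 days. Of the 7 steps between neighbours in that order, the step from 12 h to 1 day passed the test. Its log2 difference was 0.37 ± 0.11 (SE) with an adjusted p of 0.0214 (limma with Benjamini-Hochberg adjustment over all tested genes, used throughout with a threshold of 0.05). The neighbours were chosen by the order of these same means, and no alternatives were run for this step. Against untreated cells, Ddx10 fell by 0.53 ± 0.11 on the log2 scale at 2 days (adjusted p = 0.00131) and by 0.53 at 1 day (adjusted p = 0.00184). From 2 h to 12 h it fell by 0.57 (adjusted p = 0.00185), and after withdrawal it rose by 0.64 over 2 days (adjusted p = 0.000338). The early rise was less secure. It measured 0.40 at 2 h (adjusted p = 0.0248) and 0.35 at 4 h (adjusted p = 0.0389). The 2 h call was lost without untreated replicate 1 (adjusted p = 0.0893), 2 h replicate 1 (0.051) or 2 h replicate 2 (0.195), and with length and GC trends removed (0.0686) or the 2 groups fitted alone (0.0776). The 4 h call was lost without any 1 of its 4 libraries, with adjusted p from 0.0607 (untreated replicate 2) to 0.167 (4 h replicate 1), with library weights (0.0675) and with the 2 groups alone (0.0739), and the 1 day call with the 2 groups alone (0.0898).

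**Figure D1:**
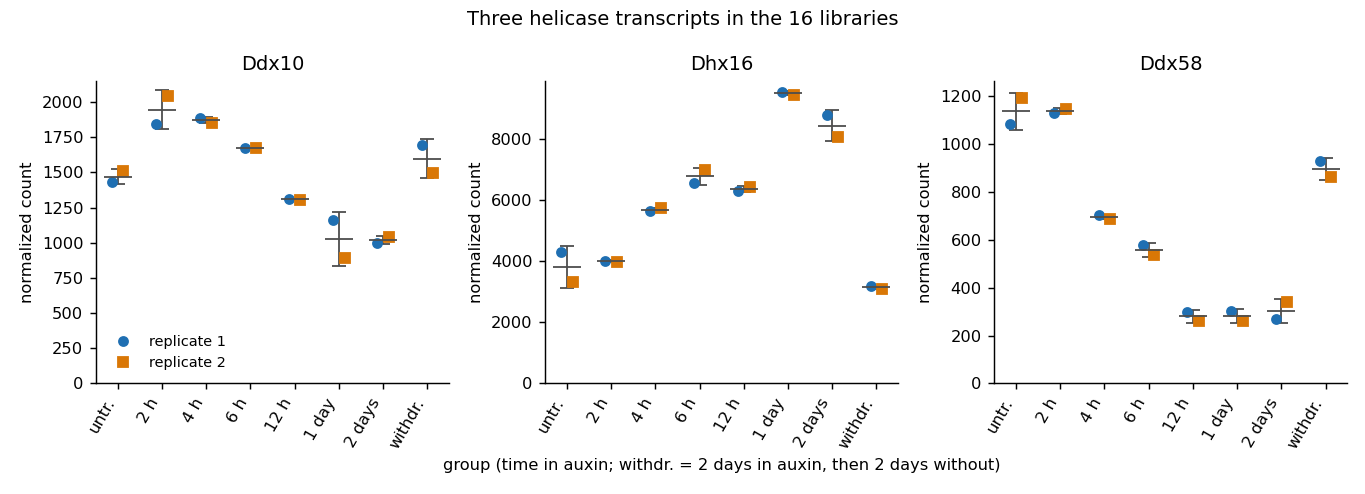
Normalized counts (vertical axes, from 0) of Ddx10, Dhx16 and Ddx58 in the 8 groups (horizontal axes). Circles and squares are replicates 1 and 2, and the bar with whiskers is the mean with its SD (n = 2). Ddx10 had its highest means at 2 and 4 h, which overlapped, and its lowest at 1 and 2 days. Dhx16 climbed to between 8078 and 9558 at 1 and 2 days, and Ddx58 dropped to between 260 and 339 from 12 h to 2 days.

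The pattern of Ddx10 over the groups was compared with that of every other tested gene by Pearson's r over the 8 group means of log2(value + 1). These points share libraries and scaling, so r is given as a description. The 5 closest of all genes were Trim44 (r = 0.995), Bzw1 (0.991), Myo5a (0.986), Heatr1 (0.985) and Ctnna1 (0.984). Among the members they were Dhx8 (0.981), Ddx24 (0.970), Ddx6 (0.967), Ddx52 (0.965) and Dhx37 (0.965), of which 3 are nucleolar, 1 is a splicing helicase and 1 acts in mRNA decay. The median r to Ddx10 was 0.86 in the nucleolar class, 0.66 in splicing, 0.57 in the others and -0.003 over all tested genes.

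Across all 8 groups, 40 of the 52 members (76.9%) differed in some group by limma's F-test, against 68.6% of all tested genes. By class these were 12 of 16 nucleolar, 9 of 13 splicing and 19 of 23 other helicases. The ratio of the highest to the lowest group mean had a median of 1.49 over the members. It reached 1.5 in 26 of them and 2 in 5, of which 1 was a splicing helicase and 4 were others. Of these 5, Dhx58 had few counts, with group means from 7.71 to 25.6. The ratio was not computed for all tested genes, so nothing particular to the family is read from these counts.

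At 2 days of auxin, 26 members had fallen and 7 had risen, against 23.8% and 21% of all tested genes (44.8% in either direction). Of the nucleolar helicases 10 fell and 1 rose (median log2 change -0.27), of the splicing helicases 5 fell and 3 rose (median -0.04), and of the others 11 fell and 3 rose (median -0.28), while the median of all tested genes was -0.01. Without 2 days replicate 1, 21 members were called, which were 9 nucleolar, 4 splicing and 8 other helicases, and without untreated replicate 1 the called splicing helicases were 5. The difference between the classes was not tested. The members had higher counts than the tested genes at the median (1703 against 402). The shares of all tested genes, here and in the other comparisons, are thus not matched for level. With the filter at a mean of 50, the median log2 change of all tested genes at 2 days was -0.04. With the 2 groups fitted alone, the calls of Ddx11, Ddx17, Ddx19a, Ddx27, Ddx46, Ddx56, Dhx34, Dhx36, Dhx37, Dhx38 and Dhx40 were lost, with adjusted p from 0.0541 (Ddx11) to 0.156 (Dhx38). Rescaling by upper quartiles ended those of Ddx27, Ddx56, Ddx3x, Dhx38 and Dhx40, library weights those of Ddx27, Ddx56, Dhx38 and Dhx40, and removal of length and GC trends those of Ddx17, Ddx3x, Dhx34 and Dhx36, with adjusted p from 0.0538 (Ddx56, library weights) to 0.989 (Ddx17, length and GC).

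**Figure D2:**
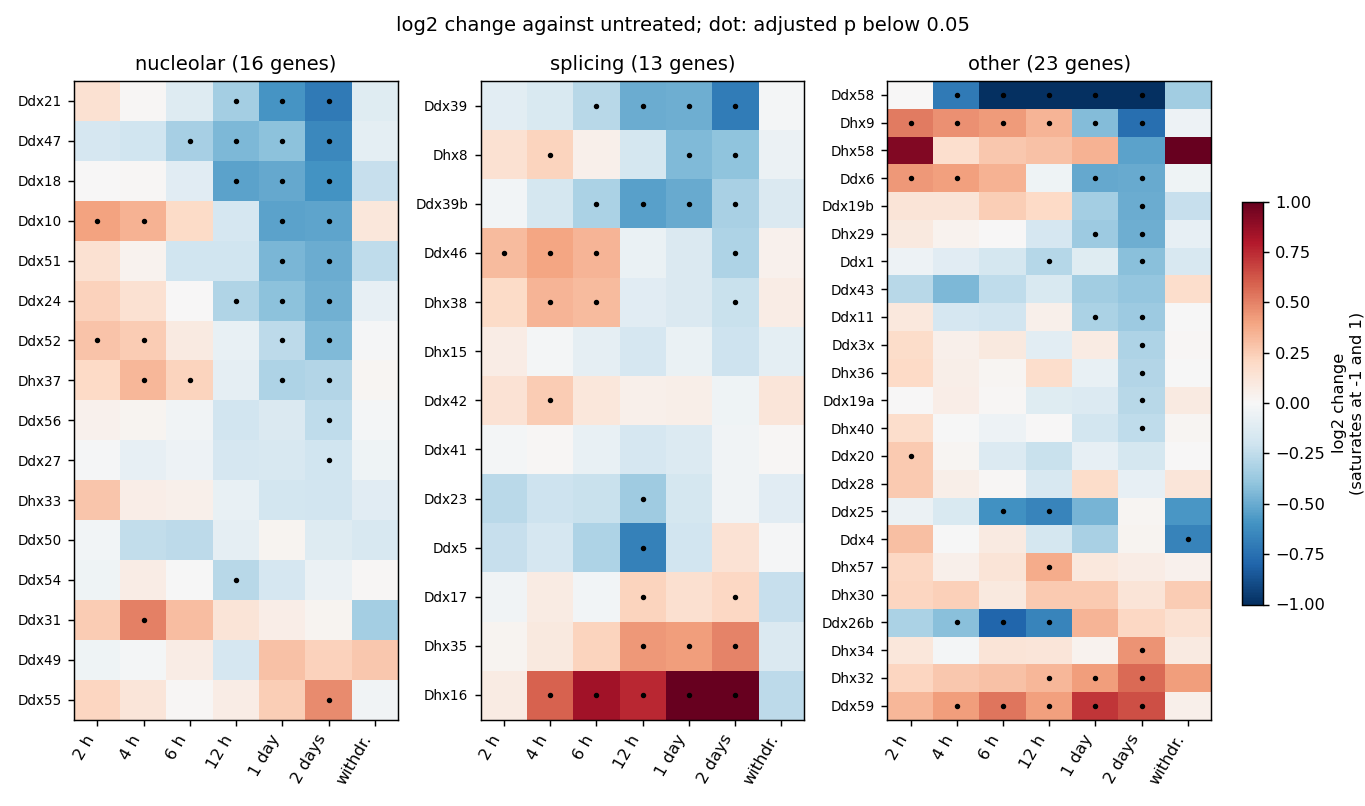
Log2 change against untreated cells (colour, saturating at -1 and 1) of the 52 helicase transcripts (rows, by class and ordered by their change at 2 days) at each time in auxin and after withdrawal (columns). Dots mark an adjusted p below 0.05. Most nucleolar rows turn blue at 1 and 2 days and pale after withdrawal, while Dhx16 is the strongest red and Ddx58 the strongest blue row at 2 days.

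In the small-subunit pathway, 4 of the 5 helicases fell at 2 days and Ddx49 did not pass. Ddx47, the counterpart of yeast Rrp3, was at 2239.6 and 1941 in untreated cells, 1407 and 1270.0 at 2 days and 1995 and 1912 after withdrawal. Its fall was 0.64 ± 0.08 on the log2 scale (adjusted p = 3.04e-05). Unlike Ddx10, it lay below both untreated libraries at 2 h, with 1830.5 and 1883, a difference that did not pass (-0.17, adjusted p = 0.186).
Ddx52, the counterpart of yeast Rok1, was at 1569 and 1501 untreated, 1147 and 1109 at 2 days and 1540.0 and 1505 after withdrawal, and fell by 0.44 ± 0.08 (adjusted p = 0.000623). Dhx37, which releases the U3 small nucleolar RNA, was at 1566 and 1400.4 untreated, 1194 and 1226 at 2 days and 1505 and 1494 after withdrawal, and fell by 0.29 ± 0.07 (adjusted p = 0.00569, and 0.0707 with the 2 groups fitted alone). In Ddx47 and Dhx37, as in Ddx10, the 2 day libraries lay below both untreated libraries and both withdrawal libraries, and the same held for Ddx52. After withdrawal all 4 rose over 2 days, by 0.64 for Ddx10, 0.55 for Ddx47, 0.43 for Ddx52 and 0.31 for Dhx37, with adjusted p from 0.00014 to 0.00442.

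Ddx49 gave 1241 and 1080.3 in untreated cells, 1647 and 1222 at 1 day and 1673 and 1105 at 2 days, so its replicates were far apart at the late times, with 1 of each pair inside the untreated range and 1 above it. Its log2 change at 2 days was 0.23 ± 0.17 (adjusted p = 0.282). Of its exon bases, 29.9% overlap Homer3 on the opposite strand. Homer3 was at 576 and 702 untreated and 777 and 798 at 2 days, and since strand handling in the counting is not given in the sources used here, reads of the 2 genes cannot be told apart there.

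**Figure D3:**
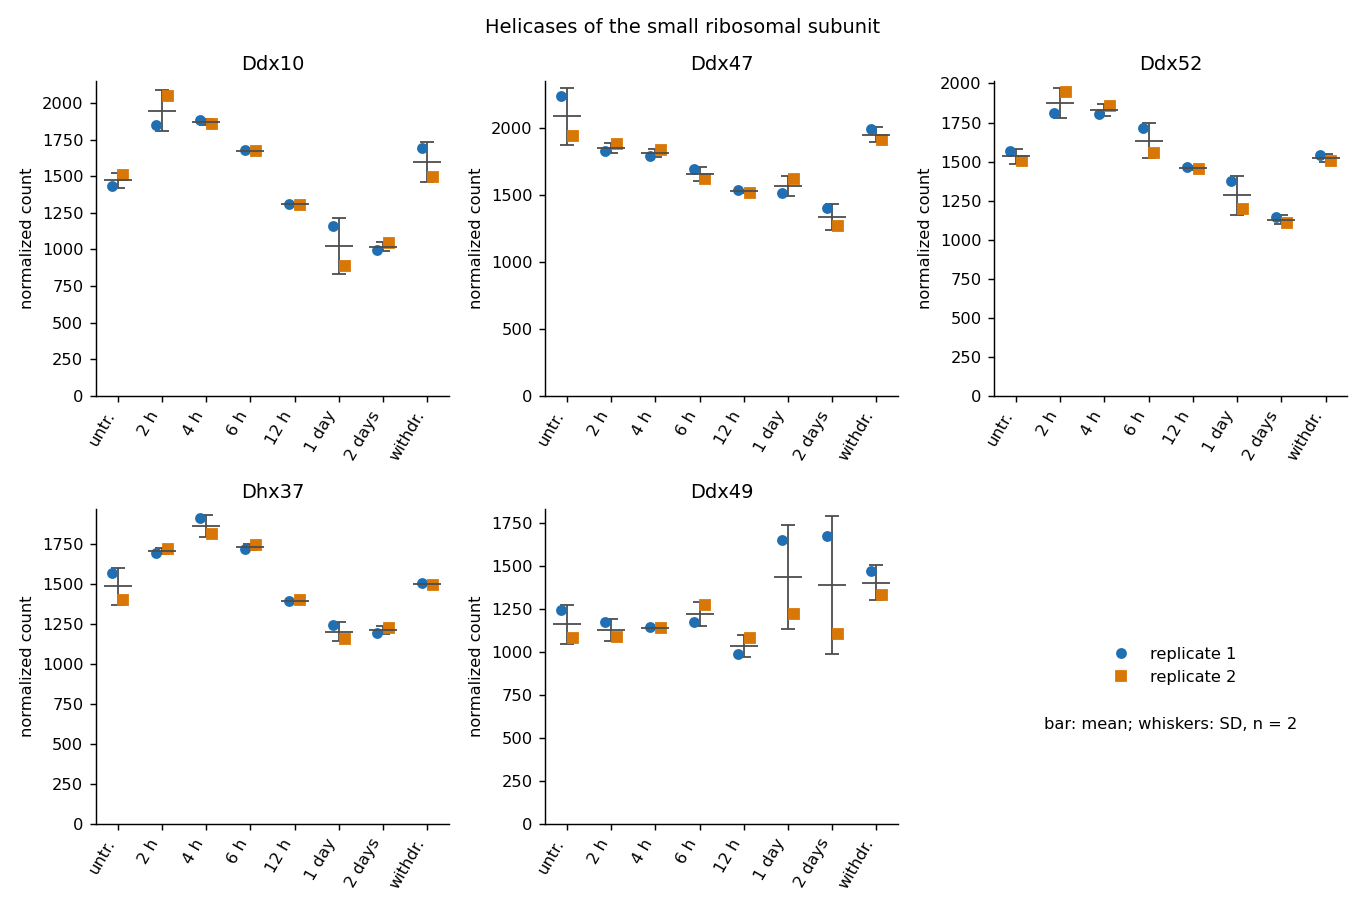
Normalized counts (vertical axes, from 0) of the 5 helicases of the small-subunit pathway in the 8 groups (horizontal axes). Circles and squares are replicates 1 and 2, with the mean and SD (n = 2). In Ddx10, Ddx47, Ddx52 and Dhx37 both 2 day libraries lie below the untreated and withdrawal libraries, and Ddx49 spread from 1105 to 1673 at 2 days.

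Of the 7 large-subunit helicases, 4 fell and 1 rose at 2 days. Ddx24, the counterpart of yeast Mak5, was at 3406 and 2953 untreated, 2205 and 2335 at 2 days and 3038 and 2939 after withdrawal, and fell by 0.48 ± 0.07 (adjusted p = 0.000131). Ddx51, which acts on U8 small nucleolar RNA, fell by 0.50 (adjusted p = 0.00334), from 1204 and 962 to 777 and 749. Its libraries after withdrawal, at 835 and 979.6, reached above the lower untreated value in 1 of 2.
Ddx55, the counterpart of yeast Spb4, went the other way, from 488 and 476 to 659 and 678, and returned to 472 and 467. It rose by 0.47 ± 0.11 (adjusted p = 0.00338), the only rise in the nucleolar class at 2 days, and fell by 0.51 after withdrawal (adjusted p = 0.0023). The calls of Ddx24, Ddx51 and Ddx55 at 2 days held in all 14 alternatives run for that comparison. Ddx27 and Ddx56 fell by 0.20 and 0.26 (adjusted p = 0.0293 and 0.0226). Both calls were lost without untreated replicate 1 (adjusted p = 0.141 and 0.187), 2 days replicate 1 (0.116 and 0.0706) or 2 days replicate 2 (0.0885 and 0.0997).

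Among the helicases of the nucleolus in general, Ddx18 and Ddx21 fell, and Ddx50 and Dhx33 did not pass. Ddx18, the counterpart of yeast Has1, was at 4977 and 4629.6 untreated, 3347 and 3272 at 12 h, 3139 and 3204 at 2 days and 4045 and 4137 after withdrawal. It fell by 0.54 at 12 h and 0.60 at 2 days (adjusted p = 7.26e-05 and 1.59e-05), and its withdrawal libraries lay between the 2 day and the untreated libraries, with -0.23 against untreated (adjusted p = 0.105). Ddx21, which links rRNA transcription and processing, was at 11206 and 11811 untreated, 7135 and 6995 at 2 days and 10874 and 10316 after withdrawal, and fell by 0.70 ± 0.11 (adjusted p = 0.000149). Its close relative Ddx50 was at 1329 and 1186 untreated and 1145 and 1151 at 2 days. The log2 difference of normalized counts between Ddx21 and Ddx50 was 3.07 and 3.31 in the untreated libraries and 2.60 and 2.64 at 2 days, so the pair drew together without overlap between the groups.

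The splicing class held the largest rise of the family against untreated cells at 2 days. Dhx16, the counterpart of yeast Prp2, drives the activated spliceosome into its first catalytic step (ENSMUSG00000024422, chromosome 17, 35879819 to 35892670, plus strand). Untreated cells had 4288 and 3326 normalized counts of Dhx16. Cells had 4019.9 and 3989 after 2 h of auxin, 5637 and 5737 after 4 h, 6577 and 6982 after 6 h and 6291 and 6426 after 12 h. The transcript reached 9558 and 9457 after 1 day and 8805 and 8078 after 2 days and stood at 3187 and 3103 after withdrawal. All libraries from 4 h to 2 days lay above all untreated and withdrawal libraries, and both withdrawal libraries lay below both untreated ones.
Its rise was 0.59 on the log2 scale after 4 h, 0.75 after 12 h, 1.33 after 1 day and 1.16 at 2 days, with an SE of 0.09 and adjusted p from 0.000902 at 4 h to 2.8e-07 at 1 day. It fell by 1.42 after withdrawal (adjusted p = 1.13e-07), and its difference from untreated then was -0.26 (adjusted p = 0.146). These calls held in every alternative run. Dhx35 and Ddx17, the other splicing helicases that rose at 2 days, changed by 0.50 and 0.20 (adjusted p = 0.00558 and 0.0237). The call of Dhx35 was lost without untreated replicate 1 (0.0519) or 2 days replicate 1 (0.0587), and that of Ddx17 without those (0.164 and 0.0608) or 2 days replicate 2 (0.121), and with length and GC trends removed (0.989).

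Of the other 12 splicing helicases, 5 fell at 2 days (Ddx39, Ddx39b, Dhx8, Ddx46, Dhx38), 2 rose as given above and 5 did not pass. Ddx39, one of a pair of mRNA export and splicing helicases, was at 6529.7 and 5772 untreated, 4343 and 4369.9 at 12 h, 3886 and 3674 at 2 days and 6037 and 6053 after withdrawal. It fell by 0.70 ± 0.07 (adjusted p = 4.08e-06), and all 2 day libraries lay below all untreated and withdrawal libraries. Its exons overlap those of Cd97 on the opposite strand over 17.4% of their bases, and Cd97 rose from 792 and 810.4 untreated to 2248 and 2325 at 2 days, the opposite direction.
Its paralog Ddx39b, whose product UAP56 recruits the U2 snRNP and couples splicing to export, was at 9457 and 9370.4 untreated, 6211 and 6725 at 12 h and 7409 and 7589 at 2 days. Ddx39b thus fell most at 12 h (-0.54, adjusted p = 1.28e-05) and by 0.33 at 2 days (adjusted p = 0.00046). The log2 difference of normalized counts between Ddx39 and Ddx39b was -0.70 and -0.53 in the untreated libraries and -1.05 and -0.93 at 2 days.

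Dhx8, which releases the finished mRNA from the spliceosome, fell from 2505 and 2446 to 1880.2 and 1867, by 0.40 (adjusted p = 0.000432), and was at 2379 and 2362 after withdrawal. Ddx46 and Dhx38, counterparts of yeast Prp5 and Prp16, were above untreated at 4 h and below at 2 days. Ddx46 changed by 0.40 at 4 h and -0.31 at 2 days (adjusted p = 0.00685 and 0.0103), and Dhx38 by 0.34 and -0.23 (adjusted p = 0.0103 and 0.0327). Leaving out 4 h replicate 1 ended the early call of Ddx46 (adjusted p = 0.0609), and untreated replicate 2 (0.106) or 2 days replicate 1 (0.0652) its late call. For Dhx38 untreated replicate 2 (0.0606) or 4 h replicate 2 (0.0805) ended the early call, as did removal of length and GC trends (0.11), and untreated replicate 1 (0.285), 2 days replicate 1 (0.14) or 2 days replicate 2 (0.0819) the late one.

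Ddx5, the most abundant member, changed at 12 h. It was at 21209 and 22986 untreated, 14057 and 13564 at 12 h, 23138 and 16192 at 1 day and 23819.7 and 24947 at 2 days. Its fall at 12 h was 0.68 ± 0.12 (adjusted p = 0.000768), its libraries at 12 h lay below all 14 others, and at 2 days it was 0.14 from untreated (adjusted p = 0.357). Its paralog Ddx17 was at 7494 and 8323 untreated and 9157 and 9239 at 12 h. The log2 difference of normalized counts between Ddx5 and Ddx17 was therefore 1.48 on average in untreated libraries and 0.55 and 0.62 at 12 h, and it was 1.66 and 1.74 after withdrawal. How reads shared by such paralogs were divided is not given in the sources used here.

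Among the other helicases, the transcript of the viral RNA sensor RIG-I fell most. Ddx58 (ENSMUSG00000040296, chromosome 4, 40203773 to 40239828, minus strand) was at 1083 and 1193 in untreated cells and 1129 and 1146 at 2 h. Then 702 and 689 were counted after 4 h, 578 and 538 after 6 h, 298 and 261 after 12 h, 303 and 259.9 after 1 day, 268 and 339 after 2 days and 929 and 862 after withdrawal. The 2 h libraries lay within the untreated range, all libraries from 4 h to 2 days lay below it, and the withdrawal libraries lay above those of 4 h to 2 days but below both untreated ones.
Ddx58 fell by 0.71 on the log2 scale after 4 h, 1.03 after 6 h, 2.02 after 12 h and 1.91 after 2 days, with an SE of 0.12 and adjusted p from 0.00186 to 1.03e-07. It rose by 1.57 after withdrawal (adjusted p = 5.79e-07) and then differed from untreated by -0.34 (adjusted p = 0.162). These calls under auxin and after withdrawal held in every alternative run. The related Dhx58 had few counts, at 8.96 and 15.1 untreated, 7.46 and 7.97 at 2 days and 34.1 and 17.2 after withdrawal. Its rise of 1.54 ± 0.53 from 2 days to withdrawal (adjusted p = 0.0326) was lost without 2 days replicate 1 (0.113), 2 days replicate 2 (0.099) or withdrawal replicate 1 (0.236).

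Dhx9 and Ddx6 were above both untreated libraries at 2 h and below both at 2 days, and Dhx9, unlike Ddx10, was still above them at 12 h. Dhx9, an abundant nuclear helicase of double-stranded RNA, was at 7532 and 8570.0 untreated, 10740.0 and 12319 after 2 h of auxin, 10402 and 9931 after 12 h, 4664 and 4890.4 at 2 days and 8584 and 7004 after withdrawal. Its change at 2 days was -0.75 ± 0.12 (adjusted p = 0.000168). Its rise of 0.52 at 2 h (adjusted p = 0.0107) was lost without untreated replicate 1 (0.0649) or 2 h replicate 2 (0.124). Ddx6, a helicase of processing bodies, was at 5099.6 and 6153 untreated, 7319.8 and 7794 at 2 h and 3828 and 4077 at 2 days, and fell by 0.50 at 2 days (adjusted p = 0.00391). Its rise of 0.43 at 2 h (adjusted p = 0.0292) was lost without untreated replicate 1 (0.175), 2 h replicate 1 (0.0804) or 2 h replicate 2 (0.182).

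Of the 7 helicases of translation, mRNA export and decay, 6 fell at 2 days and 1, Dhx34, a factor of nonsense-mediated decay, rose (median log2 change -0.31), against 23.8% lower and 21% higher over all tested genes. Dhx29, which helps the small subunit scan structured leaders, fell from 1916 and 1876 to 1391 and 1310.0, by 0.49 ± 0.09 (adjusted p = 0.000878). Ddx3x, which also acts in translation initiation, was at 14723 and 16046 untreated and 11999 and 12848 at 2 days, a change of -0.31 (adjusted p = 0.0323) that was lost without untreated replicate 2 (0.161), 2 days replicate 1 (0.164) or 2 days replicate 2 (0.0615). The rise of Dhx34, 0.45 (adjusted p = 0.00577), was lost without 2 days replicate 1 (0.0526).
The paralogs Ddx19a and Ddx19b, which release proteins from exported mRNA at the nuclear pore, were at 2353 and 2147 and at 1613 and 1799 in untreated cells, and at 1776 and 1933 and at 1181 and 1237 at 2 days. They changed by -0.28 and -0.49 (adjusted p = 0.0192 and 0.00737). The first call was lost without untreated replicate 1 (0.112) or 2 days replicate 1 (0.141), and the second without untreated replicate 2 (0.0562). The log2 difference between the pair was 0.05 and 0.11 at 12 h and 0.59 and 0.64 at 2 days.

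Ddx59 and Dhx32, whose roles are less well known, were the other helicases besides Dhx34 that rose at 2 days. Ddx59 went from 403 and 342 to 621 and 542 and back to 406 and 362, with a rise of 0.64 ± 0.11 (adjusted p = 0.000387) and a fall of 0.59 after withdrawal (adjusted p = 0.000816). Dhx32 went from 1926 and 1438 to 2521 and 2405 and was still at 2239 and 2211 after withdrawal, with a rise of 0.57 at 2 days (adjusted p = 0.00122) and a difference of 0.42 from untreated after withdrawal that did not pass (adjusted p = 0.0728). Ddx26b was lowest at 6 h, at 264 and 279 against 499.8 and 445 untreated, and fell there by 0.79 (adjusted p = 0.000642). At 2 days it was at 541 and 546, a change of 0.20 (adjusted p = 0.209).

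The 3 germline helicases had low counts, and none of them passed at 2 days, with unadjusted and adjusted p above 0.05. Ddx4, the mouse Vasa gene, was at 234 and 244 untreated, 241 and 247 at 2 days and 139 and 163 after withdrawal, and fell by 0.69 from 2 days to withdrawal (adjusted p = 0.0025). Ddx25, a testis helicase, was at 101 and 142 untreated, 128 and 115 at 2 days and 78.7 and 80.2 after withdrawal. Ddx43, another helicase of germ cells, was at 143 and 169.9, 120.1 and 118 and 182 and 171 in those groups. The calls of Ddx25 and Ddx43 from 2 days to withdrawal (-0.60 and 0.56, adjusted p = 0.0292 and 0.049) were lost with length and GC trends removed and without any 1 of the 4 libraries, in the latter with adjusted p from 0.0658 (2 days replicate 2) to 0.145 (2 days replicate 1) for Ddx25 and from 0.111 (withdrawal replicate 2) to 0.176 (withdrawal replicate 1) for Ddx43.

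At the earlier times the picture differed from that at 2 days. At 2 h, 6 members rose, against 6.75% of all tested genes, and these were Ddx10, Ddx52, Ddx46, Ddx6, Dhx9 and Ddx20, a subunit of the SMN complex. By limma none fell (2 at an unadjusted p below 0.05), against 8.45% of all tested genes at the adjusted threshold. In either direction 17 members had an unadjusted p below 0.05, against 30.5% of all tested genes. Without 2 h replicate 1, 2 members rose and 1 (Ddx23) fell, with length and GC trends removed 2 rose and 1 (Ddx26b) fell, and without untreated replicate 2, 5 rose and 1 (Ddx47) fell. No member was called without 2 h replicate 2 or with the 2 groups fitted alone. At 4 h, 12 rose and 2 fell (8.86% and 10.2% of all genes), with 9 called without untreated replicate 1, 4 without 4 h replicate 1 and 6 without 4 h replicate 2.
At 6 h, 6 rose and 6 fell (10.9% and 13.4% of all genes, 24.4% in either direction), with 7 called without 6 h replicate 1 and 5 without 6 h replicate 2. At 12 h, 7 rose and 13 fell (14.8% and 18.3%, 33.1% in either direction), and the calls were 12, 11 and 11 without untreated replicate 1, 12 h replicate 1 and 12 h replicate 2. At 1 day, 4 rose and 16 fell (15.9% and 17.7%, 33.6% in either direction), of which 8 of the falls were nucleolar. With the 2 groups fitted alone, the 4 h, 6 h, 12 h and 1 day comparisons had 3, 5, 12 and 4 calls, and with library weights those of 4 h and 1 day had 8 and 12.

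The early course was also read against 2 h, because earlier results of these data showed that the 2 to 12 h libraries stood apart from the others. The untreated libraries also differed most from each other. All 8 libraries of 2 to 12 h lay above all 8 others for Ddx31, Ddx19b and Dhx9, which is 3 of 52 members against 3.17% of all tested genes, and below them for Ddx26b, against 4.43%. Ddx31, a large-subunit helicase, lay between 472 and 628 in these libraries and between 328 and 462 in the others. From 2 h to 4 h Dhx16 rose and Ddx58 fell (1.77% and 0.681% of all genes, 2.45% in either direction), and both calls were lost without any 1 of the 4 libraries, when no member was called. From 2 h to 6 h, Dhx16 rose, and Ddx58, Ddx26b, Ddx20, Ddx11 and Ddx39b fell (4.45% and 3.35% of all genes, 7.8% in either direction), with 3 members called without 2 h replicate 2, 3 without 6 h replicate 1 and 2 without 6 h replicate 2. That count was 15 with library weights and 12 with the 2 groups fitted alone.

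From 2 h to 12 h, 22 members fell and 3 rose, against 13.7% and 10.9% of all tested genes (24.6% in either direction). Falls were found in 8 of 16 nucleolar helicases (median log2 change -0.28), 7 of 13 splicing helicases (median -0.24) and 7 of 23 others (median -0.18), and the 3 rises were Dhx16, Dhx35 and Ddx17, of which the last pair were lost without any 1 of the 4 libraries. All 16 nucleolar transcripts had a change below 0, as had 10 of 13 splicing and 16 of 23 other helicases. Of all tested genes 51.8% had a change below 0, and their median was -0.02. At 12 h against untreated, 14 of 16 nucleolar transcripts had a change below 0, against 48.1% of all tested genes. In the nucleolar class, Ddx10 (-0.57), Ddx18 (-0.54), Ddx24 (-0.53) and Ddx21 (-0.49) fell in every alternative run, with adjusted p of 0.00185, 0.000128, 0.000176 and 0.0054. Without 2 h replicate 1, 2 h replicate 2, 12 h replicate 1 or 12 h replicate 2, the members called were 14, 11, 13 and 15, of which 5, 4, 5 and 6 were nucleolar, 5, 4, 5 and 6 splicing and 4, 3, 3 and 3 other helicases.

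**Figure D4:**
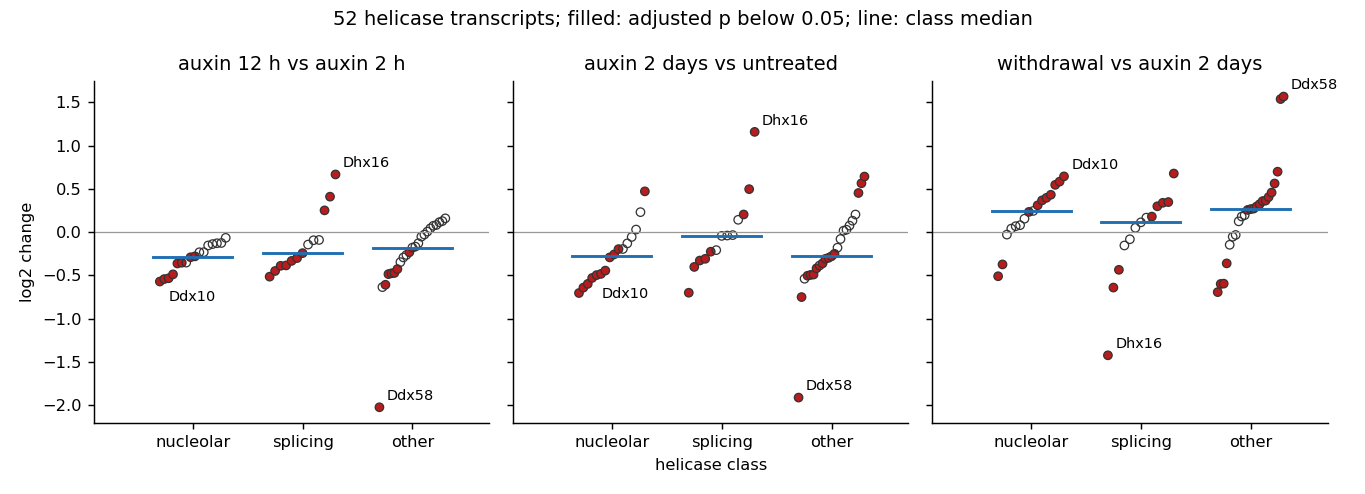
Log2 change (vertical axis) of each of the 52 helicase transcripts, by class (horizontal axis), from 2 h to 12 h of auxin, from untreated to 2 days and from 2 days to withdrawal. Filled points have an adjusted p below 0.05 and the line is the class median. The nucleolar medians are -0.28, -0.27 and 0.24, and the splicing medians -0.24, -0.04 and 0.11. Dhx16 and Ddx58 lie far from their class medians in opposite directions, and Dhx58 lies close to Ddx58 from 2 days to withdrawal.

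After withdrawal most members were back near the untreated level. Against 2 days, 25 members rose and 9 fell, against 22.2% and 19.1% of all tested genes (41.3% in either direction). Of the nucleolar class 8 rose and 2 fell (median 0.24), of splicing 5 rose and 3 fell (median 0.11), and of the others 12 rose and 4 fell (median 0.27). Without 2 days replicate 1 the members called were 20 and without withdrawal replicate 1 they were 22, and the called others, 16 in all, were 6 and 8 then, 9 without 2 days replicate 2 and 10 without withdrawal replicate 2.
Against untreated cells, Ddx4 was lower after withdrawal (-0.66, adjusted p = 0.0359), and no other member passed the limma test, though 12 members, Ddx4 included, had an unadjusted p below 0.05. Of all tested genes 2.79% were called in that comparison, 1.72% higher and 1.07% lower. The call of Ddx4 was lost without untreated replicate 2 (0.0923), withdrawal replicate 1 (0.246) or withdrawal replicate 2 (0.0885). Without untreated replicate 1, 5 members were called, and without either withdrawal library none. Most members thus did not differ detectably from untreated cells with 2 libraries a group, which does not show that they were equal.

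Partners and cofactors of nucleolar helicases were taken from a list drawn from general knowledge. Of 14 measured, 9 fell at 2 days, against 23.8% of all tested genes, and 5 did not pass (median log2 change -0.34). From 2 days to withdrawal 9 rose, against 22.2% (median 0.27), and at 12 h 8 of the 14 had fallen, against 18.3% (median -0.35). Leaving out untreated replicate 1 left 6 falls at 2 days, and leaving out 2 days replicate 2 or withdrawal replicate 1 left 5 rises each after withdrawal. Nol10 and Aatf, whose yeast counterparts bind that of DDX10, fell from 1789 ± 83.7 to 1364 ± 19.6 (mean ± SD, n = 2, log2 change -0.39, adjusted p = 0.00149) and stood at 1014 ± 121 and 871 ± 36.6 (-0.21, adjusted p = 0.104), respectively. Pdcd11, the counterpart of the Rok1 partner Rrp5, fell from 4764 ± 396 to 2951 ± 183 (-0.69, adjusted p = 1.36e-05). Utp14a, which activates DHX37, was at 2494 ± 445 and 2092 ± 19.6 (-0.24, adjusted p = 0.0761).

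Of 19 measured RNA helicases that carry no Ddx or Dhx name, 6 fell and 1 rose at 2 days (median log2 change -0.13), against 23.8% and 21% of all tested genes. From 2 days to withdrawal 6 rose and 2 fell, against 22.2% and 19.1%. The share called is thus below that of all genes at 2 days and near it after withdrawal, and nothing is read from these counts. The calls at 2 days numbered 4 without 2 days replicate 1 and 11, all of them falls, with length and GC trends removed. From 2 days to withdrawal they numbered 3 without 2 days replicate 2, 3 without withdrawal replicate 1 and 4 without withdrawal replicate 2. Mov10, a helicase that restrains retroelements, fell from 2714 ± 305 to 1416 ± 67.8 (-0.93, adjusted p = 2.54e-06) and was at 2733 ± 129 after withdrawal. Eif4a1, the cap-dependent translation helicase, had a log2 change of -0.45 (adjusted p = 8.63e-06), while its paralog Eif4a2 was at 9389 ± 771 and 8970.3 ± 359 (-0.06, adjusted p = 0.619). Eif4a3 of the exon junction complex changed by -0.46 and Skiv2l2, the exosome helicase that also trims rRNA precursors, by -0.58 (adjusted p = 0.000565 and 1.08e-05). Snrnp200, the helicase that unwinds the U4 and U6 snRNAs, was the 1 that rose, by 0.26 (adjusted p = 0.0355). Its call was lost without any 1 of the 4 libraries, with adjusted p from 0.072 (untreated replicate 1) to 0.141 (2 days replicate 2), and with length and GC trends removed (0.913).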

How the data were processed

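Per the submitters' processing notes, Trim Galore, STAR, RSEM and DESeq2 were used with build mm10. The sources used here do not name versions, annotation or strand handling. The deposited values are a signal, gene counts that the authors divided by a factor per library, as the table's name and values show. The value of 1 read was fitted per library to give the most whole reads in genes with 1 transcript. Among nonzero values under 20 reads, whole reads (tolerance 0.1) came out for 72.4 to 99.0% in those genes. The share was 35.6 to 44.9% in the rest, so no count test was run. Values were tested as log2(value + 1), which understates changes of low genes, for the 13355 genes averaging 10 or more across 16 libraries, in 1 limma 3.58.1 fit (R 4.3.3, intensity trend, 8 residual degrees of freedom) with a mean per group. P-values were adjusted by Benjamini-Hochberg over these genes within each of 11 comparisons and an F-test. For the steps between neighbouring groups of Ddx10, the adjustment was within each pair of groups. The code was tested on simulated data. With 2 libraries a group, and no statement that they were separate cultures, p-values measure the spread between these libraries only.

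Members, classes and lists were chosen with earlier results of these data known. Genes named are Ddx10, the small-subunit, antiviral and germline members, paralog pairs and up to 6 members per class with the smallest F-test p. Others, including Ddx51, Ddx55, Ddx59, Dhx32, Dhx34 and Dhx35, were named after their values were seen, as were the list genes given. Alternatives were a pseudocount of 0.5 or 5, a filter at a mean of 50 or none, 2 rescalings, a replicate block, library weights, removal of length and GC trends, the compared groups alone and leaving out each library. Gene models were GENCODE M21, in which 85 of 14552 identifiers were not found.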

Additional observations from a re-analysis of the deposited data

How the results depend on the processing

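Over 935 log2 changes of single genes (the 52 members and 33 listed genes), 627 values in 167 of them lost significance, 241 in 145 gained it and 2, of genes outside the family, turned in sign with length and GC trends removed, Skiv2l from 2 days to withdrawal (0.0014, adjusted p = 0.992) and Upf1 from 2 h to 12 h (-0.021, adjusted p = 0.865). The cause was not tested. Pseudocounts, filters and trimmed-mean rescaling left all counts of called members within 1.5 times. Fitting the compared groups alone gave 0 called members at 2 h, 3 at 4 h, 5 at 6 h, 12 at 12 h, 4 at 1 day and 0 after withdrawal against untreated, and 12 for 6 h against 2 h. Library weights gave 8 at 4 h, 12 at 1 day, 0 after withdrawal against untreated, 4 for 4 h against 2 h and 15 for 6 h against 2 h. Removing length and GC trends gave 3 at 2 h, 2 after withdrawal against untreated and 1 for 4 h against 2 h, and upper quartiles gave 2 after withdrawal against untreated. The replicate block gave 2 there and left the other counts within 1.5 times. Replicate numbers did not pair the libraries (correlations of deviations between -0.06 and 0.07 over 28 pairs of groups, none over 0.1).

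Leaving out 1 library gave 0 to 8 called members at 2 h, 4 to 12 at 4 h, 5 to 13 at 6 h, 11 to 22 at 12 h, 19 to 27 at 1 day, 21 to 28 at 2 days and 0 to 5 after withdrawal against untreated. It gave 20 to 26 for withdrawal against 2 days, 0 to 0 for 4 h, 2 to 4 for 6 h and 11 to 15 for 12 h against 2 h, and 31 to 45 for any difference among the groups. The lone library of a group is then assumed to vary like the other groups.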
